A study of Drosophila melanogaster with 6 samples.

Results

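The glutathione S-transferase (GST) genes of the fly were followed in midguts of virgin and mated females. Members were all gene symbols of the count files that begin with Gst, a class letter (D, E, O, S, T or Z) and a number, which gave 35 genes of 17116 in all: 11 Delta, 14 Epsilon, 3 Omega, 1 Sigma, 4 Theta and 2 Zeta. RNA was sequenced from w1118 Drosophila melanogaster females, a white-eyed stock labelled as wild type, at 8 days of age. There were 3 virgin samples and 3 mated samples, the latter taken 3 days after mating, and each sample pooled 30 guts; both groups share genotype, rearing and age. The sample labels give the tissue as midgut, whereas the series' design text speaks of guts. The comparison asked how the intestine differs after mating.

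GSTs are enzymes that join the tripeptide glutathione to reactive or fat-soluble molecules, which makes these easier to remove from the cell, and several also reduce lipid peroxides or act as thiol transferases. The Delta and Epsilon classes are expanded in insects and are best known for breaking down insecticides and products of oxidative damage, whereas Omega, Sigma, Theta and Zeta enzymes have relatives in vertebrates. In the fly gut, GST transcripts belong to the response to dietary toxins and oxidative stress, part of which is driven by the transcription factor cnc (the fly relative of Nrf2) and held back by Keap1.

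The libraries held between 15902696 and 29021297 reads counted to genes. Transcripts of enterocytes, the absorptive cells, were abundant in every library, with alphaTry, betaTry, epsilonTry, Myo31DF and nub summing to between 39061 and 60467 CPM (reads per 1000000 reads counted to genes, the counts divided by library sizes that edgeR's TMM method had scaled). The progenitor marker esg and the enteroendocrine marker Tk were also detected in all 6. Of the 5 enterocyte genes, epsilonTry passed as higher in mated midguts (log2 fold change 0.77 ± 0.15 SE, edgeR adjusted p = 0.0135) and 4 did not pass. That 1 gene is 20.0% of the list, where 2.47% of all tested genes passed as higher. The library virgin 2 stood apart by its ovary transcripts: osk, vas, nos and bam summed to 31.5 CPM there and to at most 1.40 CPM in the other libraries. Virgin 2 was also the library with the lowest level for 12 of the 31 GST genes tested, and mated 1 the one with the highest level for 11. A fit without both libraries thus drops low virgin or high mated values of many members, which can move such members toward lower by the choice itself. This does not hold for every member: GstT4 had its lowest mated level in mated 1. The median log2 fold change of mated over virgin was 0.23 over the 31 tested members and -0.09 over the 29 tested without both libraries. GstD4 and GstZ2, both positive with all libraries, were not tested in the latter fit.

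Most GST RNA came from a few genes. Levels are compared between genes as CPM per kilobase of exon. In virgin midguts the order was led by GstT4 at 510 ± 149 (SD, n = 3), GstD1 at 486 ± 80.8, GstE3 at 325 ± 95.4 and GstO3 at 299 ± 54.0 CPM per kilobase. GstT4 and GstD1 differed by less than their SDs, as did GstE3 and GstO3. GstE12 (237 ± 9.49), GstE9 (179 ± 37.0) and GstO2 (112 ± 15.7) followed. In mated midguts GstD1 led at 570 ± 104, followed by GstE3 at 475 ± 231 and GstO3 at 415 ± 56.7, and GstT4 came after these at 206 ± 22.4 CPM per kilobase. Among the first 3, neighbours differed by less than the larger SD, and GstT4 lay close to GstE12 at 193 ± 14.3. GstD1, which can dechlorinate DDT and whose promoter is widely used as a reporter of oxidative stress, thus lay beside GstT4 in virgin libraries and above it in mated ones. The ratio of GstD1 to GstT4 per kilobase was 0.884, 0.778 and 1.34 in virgin 1 to 3 and 2.96, 2.95 and 2.38 in mated 1 to 3; being a ratio within a library, it does not depend on how libraries are scaled.

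**Figure D1:**
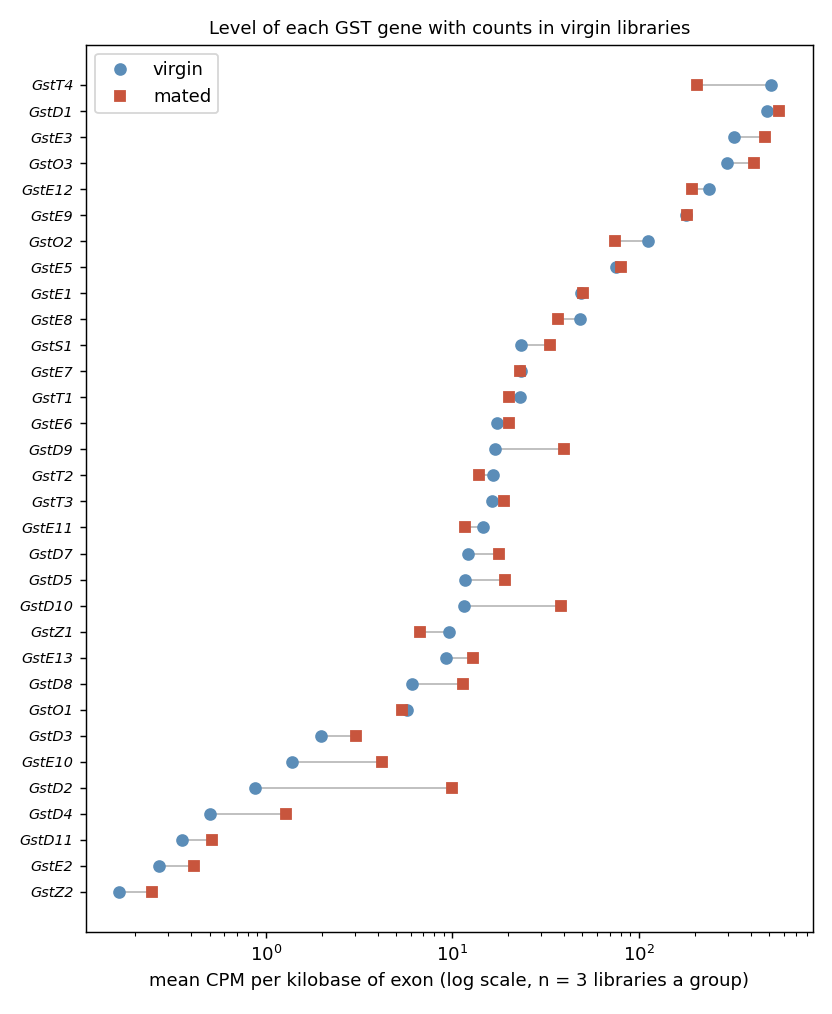
Mean level of each GST gene in virgin (circles) and mated (squares) midguts, in CPM per kilobase of exon on a log axis, with genes ordered by their virgin level and grey lines joining the groups. GstT4 moves from 510 in virgin to 206 in mated midguts, GstD2 from 0.878 to 9.94; the 3 genes with no virgin counts are not drawn.

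At the other end, 4 members had too few counts to be tested. GstD6 had 0 counts in all virgin libraries and 4, 5 and 1 in mated 1, 2 and 3. GstE4 had 0 virgin counts and 24, 9 and 0 mated counts, so it was at least 15.6-fold higher in the mated group against a floor of 3 counts over the virgin group, with mated 3 at 0. That bound was 6.93-fold without mated 1. GstE14, known as Noppera-bo and required for making the moulting hormone ecdysone, had 6 counts in all, in mated 3. GstE2 had between 0 and 10 counts in each of the 6 libraries. The other 31 members passed the filter on low counts.

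Summed over all 35 genes, GST transcripts came to 2594 ± 410 CPM (SD, n = 3) among virgin samples and 2466 ± 272 CPM (SD, n = 3) among mated samples, and the groups overlapped. On the log2 scale the ratio of mated to virgin was -0.07 and turned positive without virgin 1 (0.10) or mated 3 (0.02). Scaled by total counts alone it was -0.32. As a share of all gene counts, GST counts were 0.318%, 0.266% and 0.262% in virgin 1, 2 and 3. They were 0.230%, 0.247% and 0.200% in mated 1, 2 and 3, without overlap, so the overlap of the sums depends on TMM scaling. The make-up of the GST sum differed. Theta transcripts were at 853, 705 and 491 CPM in virgin 1, 2 and 3 and at 287, 339 and 302 CPM in mated 1, 2 and 3, with no overlap. They made up 26.1 ± 4.41% of GST counts in virgin and 12.7 ± 1.71% in mated libraries. Delta transcripts made up 17.7 ± 1.53% and 24.1 ± 3.17%, also with no overlap, and their summed level was 460 ± 81.1 and 595 ± 113 CPM, with overlap. Epsilon transcripts held the largest share in both groups, 35.8 ± 1.94% and 39.4 ± 6.89%, with 47.0% in mated 1. Because shares sum to a whole, a fall in one class raises the others; without GstT4, the GST sum was 2276, 1746 and 1892 CPM in virgin 1, 2 and 3 and 2448, 2279 and 1916 CPM in mated 1, 2 and 3. No test was made on these sums.

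**Figure D2:**
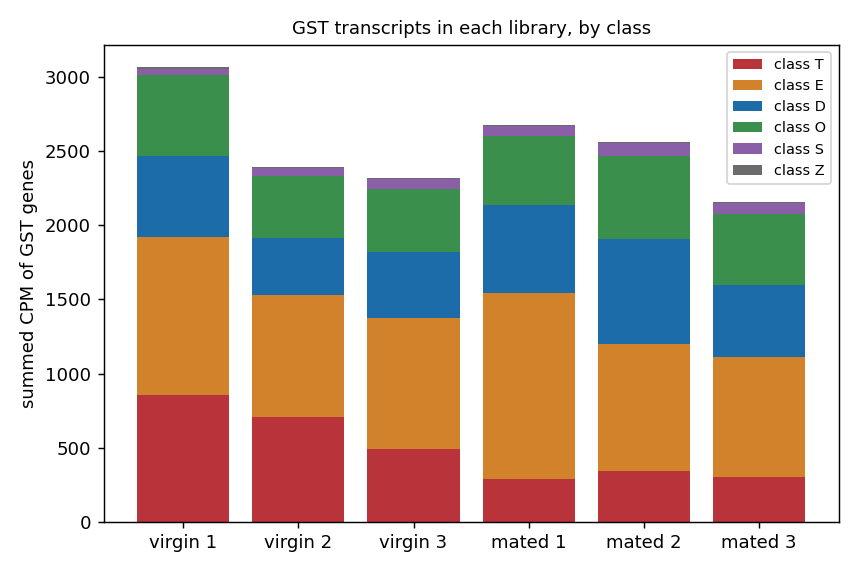
Summed TMM-scaled CPM of the GST genes in each of the 6 libraries, stacked by class. The Theta block is between 491 and 853 CPM in the virgin libraries and between 287 and 339 CPM in the mated libraries, while the whole bar overlaps between the groups (2323 to 3066 and 2159 to 2677 CPM).

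In the comparison of single genes, GstT4 and GstO2 fell and GstD2 and GstD9 rose in mated midguts, and 27 tested members did not pass. The test was edgeR's quasi-likelihood test, with a threshold of 0.05 on the p-value after Benjamini-Hochberg adjustment across 8607 genes, 4.10% of which passed in either direction. The 2 higher members are 6.45% of the 31 tested, where 2.47% of all tested genes passed as higher, and the 2 lower members are also 6.45%, where 1.63% of all tested genes passed as lower. At an unadjusted p below 0.05 there were 10 members, 6 higher and 4 lower, which is 32.3% of those tested, against 17.2% of all tested genes. The median log2 fold change was 0.23 over the tested members and -0.05 over all tested genes. Since pooled guts were sequenced in bulk, fewer cells of a type and less RNA per cell cannot be told apart in any of these values.

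**Figure D3:**
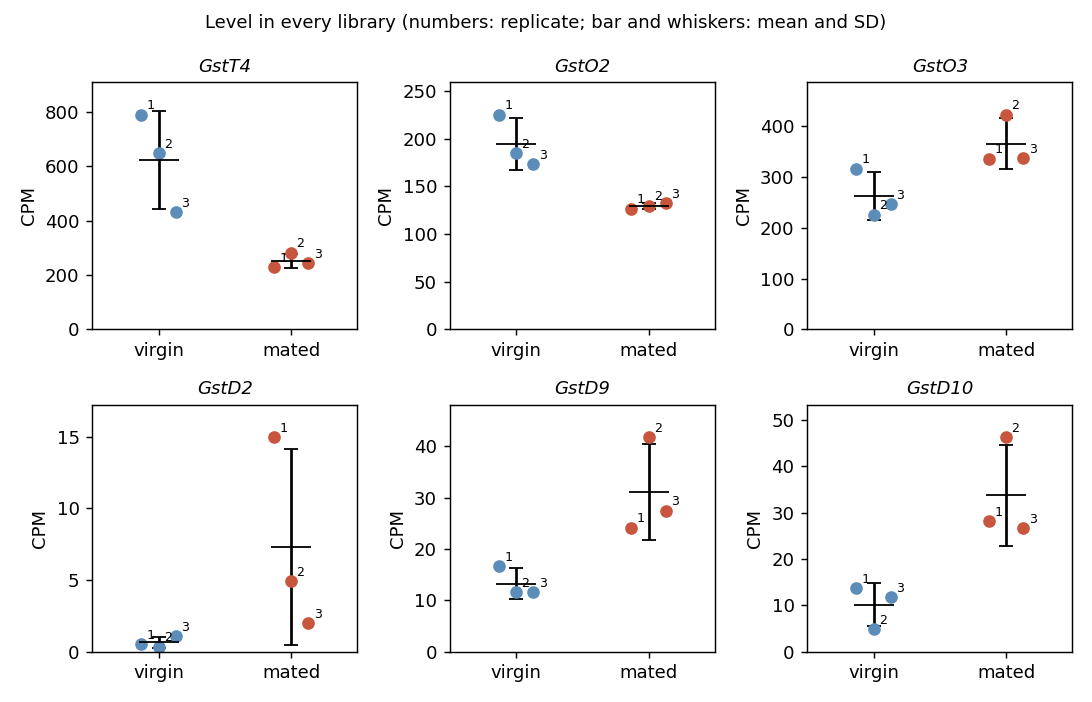
CPM of 6 GST genes in every library, with the replicate number beside each point and the mean and SD of each group as a bar with whiskers. GstT4 and GstO2 are lower in all mated libraries, GstO3, GstD2, GstD9 and GstD10 higher in all, and the mated points of GstD2 run from 2.00 to 15.0 CPM.

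GstT4 (X, 13404749 to 13409323, plus strand, dm6) is a Theta class gene and had the highest mean level per kilobase of all GST genes in virgin midguts. It was at 790, 648 and 430 CPM in virgin 1, 2 and 3 and at 229, 282 and 243 CPM in mated 1, 2 and 3. Every mated library lay below every virgin library, and the spread was wider among virgin libraries, with a coefficient of variation of 29.1% against 10.9%. GstT4 fell 2.48-fold (log2 fold change -1.31 ± 0.20 SE, edgeR adjusted p = 0.00534). It passed in each of the 6 fits that left out 1 library, with an adjusted p of at most 0.0363, but not without virgin 2 and mated 1 together (log2 fold change -1.22, adjusted p = 0.123). As a share of all GST counts it held 25.8%, 27.1% and 18.5% in the virgin libraries and 8.56%, 11.0% and 11.3% in the mated ones. The other 3 Theta genes did not pass. GstT1 was at 20.9, 23.6 and 24.7 CPM in virgin 1, 2 and 3 and at 21.6, 21.4 and 17.3 CPM in mated 1, 2 and 3, with overlap. GstT1 and GstT2, which lie side by side on 2R, had log2 fold changes of -0.20 ± 0.16 and -0.26 ± 0.19, and the X-linked GstT3 had 0.21 ± 0.18 (SE).

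Of the 3 Omega genes, which lie within 5.98 kb on 3L (8518885 to 8524866), GstO2 fell. Omega GSTs carry a cysteine at the active site and act as thiol transferases and dehydroascorbate reductases. GstO2 (3L, 8521429 to 8523501, minus strand) was at 226, 185 and 174 CPM in virgin 1, 2 and 3 and at 127, 130 and 132 CPM in mated 1, 2 and 3. The mated libraries were nearly level, at a coefficient of variation of 2.12%, and all lay below the virgin ones. It fell 1.50-fold (log2 fold change -0.59 ± 0.13 SE, edgeR adjusted p = 0.0321), but its call was lost in all 6 fits that left out 1 library (adjusted p from 0.0579 to 0.132) and when replicate number entered the fit as a block (adjusted p = 0.0625).

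The neighbour GstO3 (3L, 8518885 to 8520295, plus strand) lay the other way. It was at 317, 226 and 247 CPM in virgin 1, 2 and 3 and at 336, 424 and 338 CPM in mated 1, 2 and 3, without overlap, and did not pass in edgeR (log2 fold change 0.48 ± 0.16 SE, adjusted p = 0.15). DESeq2 called it as higher (adjusted p = 0.0425). Set against GstO2 in the same library, GstO3 per kilobase was 2.78, 2.42 and 2.81 times as high in virgin 1, 2 and 3 and 5.25, 6.47 and 5.06 times in mated 1, 2 and 3. That ratio averaged 2.67 ± 0.219 over the virgin and 5.59 ± 0.764 over the mated samples (SD, n = 3); it was set up after the values of both genes were seen and was not tested. GstO1 was low in both groups, with 5.45 ± 1.44 and 5.15 ± 0.275 CPM. The gene sepia (se), an Omega GST of eye pigment synthesis whose symbol falls outside the naming rule, was at most at 0.73 CPM and overlaps GstO2 on the opposite strand.

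The 11 Delta genes lie together within 20.8 kb of chromosome 3R (12364776 to 12385624). All 10 tested Delta genes had positive log2 fold changes with a median of 0.81, where 45.0% of all tested genes were positive. GstD1 turned to -0.01 when libraries were scaled by total counts alone, a scaling that moved the median of all genes from -0.05 to -0.30. Without virgin 2 and mated 1 together, 7 of the 9 then tested were positive. By the test 2 rose (20.0%, against 2.47% of all tested genes), 0 fell and 8 did not pass. Before adjustment 4 were below 0.05, where 17.2% of all tested genes were, in either direction. DESeq2 called 3 as higher and limma-voom 2, where these tools called 4.54% and 2.56% of all tested genes as higher. Only reads placed at 1 position are counted. How alike the Delta genes are in sequence was not measured here, so the split of reads between neighbours is uncertain. Multiply placed reads, which are not counted, were 4.31%, 4.98% and 4.89% of all reads in virgin 1, 2 and 3 and 7.67%, 5.67% and 6.91% in mated 1, 2 and 3, without overlap. These shares cover the whole genome, and the part of such reads in the Delta values was not tested.

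GstD9 (3R, 12366163 to 12367564, minus strand) was at 16.7, 11.6 and 11.5 CPM in virgin 1, 2 and 3 and at 24.2, 41.8 and 27.5 CPM in mated 1, 2 and 3. Every mated library lay above every virgin one, and mated 2 was the highest. It rose 2.34-fold (log2 fold change 1.23 ± 0.24 SE, edgeR adjusted p = 0.0152) and passed in 3 of the 6 fits that left out 1 library; without virgin 2, virgin 3 or mated 2 the adjusted p was between 0.0638 and 0.0664. It also passed without virgin 2 and mated 1 together (adjusted p = 0.0472) and when replicate number entered the fit as a block (adjusted p = 0.043).

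GstD2 (3R, 12371971 to 12372704, plus strand) is a rare transcript in virgin midguts. It had 16, 11 and 19 counts in virgin 1, 2 and 3 and 328, 77 and 38 counts in mated 1, 2 and 3, or 0.531, 0.344 and 1.06 CPM against 15.0, 4.90 and 2.00 CPM. The groups did not overlap, but mated 1 alone held most of the mated counts and the mated coefficient of variation was 93.4%. GstD2 rose 11.6-fold (log2 fold change 3.54 ± 0.78 SE, edgeR adjusted p = 0.0403). Without mated 1 the log2 fold change was 2.43 and the call was lost (adjusted p = 0.177). It passed in 1 of the 6 fits that left out 1 library, that without mated 3 (adjusted p = 0.0118), and reached an adjusted p of 0.238 without virgin 2. It did not pass with limma-voom (adjusted p = 0.205), with no low-count filter (adjusted p = 0.0617) or when replicate number entered the fit as a block (adjusted p = 0.0937).

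GstD10 (3R, 12364776 to 12365735, minus strand) neighbours GstD9 and showed a like pattern across libraries, with 13.7, 4.87 and 11.8 CPM in virgin 1, 2 and 3 and 28.1, 46.3 and 26.7 CPM in mated 1, 2 and 3. The groups did not overlap and mated 2 was again the highest. Its log2 fold change was 1.74 ± 0.41 (SE) and it did not pass in edgeR (adjusted p = 0.079), whereas DESeq2 and limma-voom called it as higher (adjusted p = 1.6e-05 and 0.0251). In edgeR it passed in 1 of the 6 fits that left out 1 library, that without virgin 2 (adjusted p = 0.0207, up to 0.199 in the others). It also passed without virgin 2 and mated 1 together (edgeR adjusted p = 0.026). With the replicate block or no low-count filter it did not pass in edgeR (adjusted p = 0.25 and 0.159). On the far side of GstD9, the abundant GstD1 (3R, 12367817 to 12369268, minus strand) was at 483, 348 and 398 CPM in virgin and at 468, 574 and 399 CPM in mated libraries, which overlapped (log2 fold change 0.23 ± 0.17 SE, adjusted p = 0.547). GstD1 supplied 89.2% of the Delta sum in virgin and 80.8% in mated libraries.

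Among the plus-strand Delta genes past GstD2, GstD5 was at 9.83, 10.8 and 8.86 CPM in virgin and 15.9, 20.8 and 11.8 CPM in mated libraries. These groups did not overlap, and GstD5 did not pass (log2 fold change 0.71 ± 0.23 SE, adjusted p = 0.132). GstD7 and GstD8 overlapped between groups, with log2 fold changes of 0.54 ± 0.36 and 0.92 ± 0.59 (SE). GstD8 was at 17.0 CPM in mated 1 against 6.49 and 4.06 CPM in mated 2 and 3, so mated 1 was the high library here as for GstD2; without mated 1 the adjusted p of GstD8 was 0.958, and without virgin 2 and mated 1 together its value turned negative. GstD3, GstD4 and GstD11 had group means between 0.366 and 2.29 CPM, and all 3 overlapped.

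**Figure D4:**
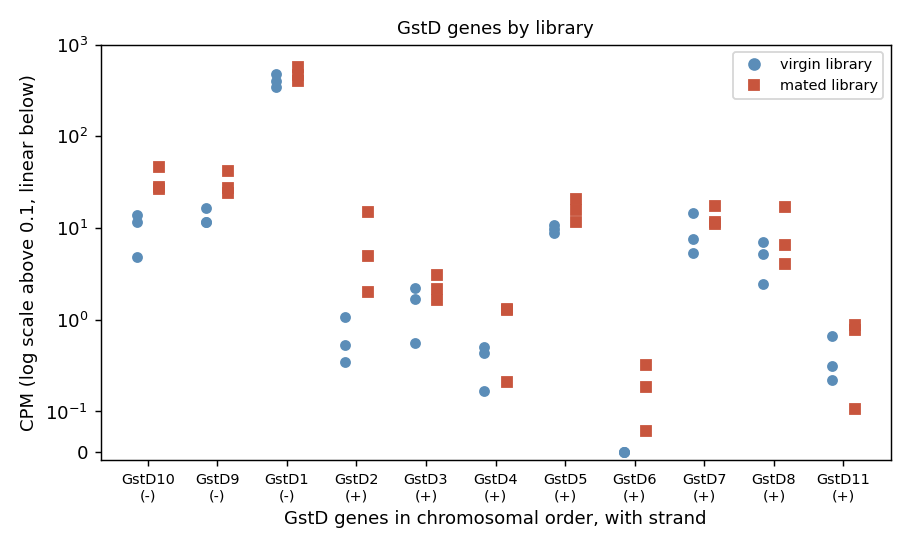
CPM of the 11 Delta genes in each virgin (circles) and mated (squares) library, in chromosomal order with the strand of each gene; the axis is logarithmic above 0.1 CPM and linear below. GstD10, GstD9, GstD2, GstD5 and the untested GstD6 show all mated above all virgin libraries, while GstD1, between GstD9 and GstD2, is the most abundant and overlaps. GstD6 rests on 4, 5 and 1 counts in mated 1, 2 and 3 and 0 in the virgin libraries. Of all tested genes, 11.6% had all mated above all virgin libraries.

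No Epsilon gene passed in edgeR. Of 11 tested, 2 had an unadjusted p below 0.05, both lower in mated midguts, and neither DESeq2 nor limma-voom called any (0 each). Over all tested genes, 17.2% had an unadjusted p below 0.05 in edgeR. The class median log2 fold change was 0.03, with 7 positive and 4 negative, and -0.23 with 3 positive and 8 negative when scaled by total counts alone. Of the 14 Epsilon genes, 10 (GstE1 to GstE10) lie within 13.2 kb of 2R (18396638 to 18409835) and the other 4 lie elsewhere on that arm.

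GstE3 was the most abundant Epsilon gene per kilobase. It was at 319, 175 and 241 CPM in virgin 1, 2 and 3 and at 557, 288 and 230 CPM in mated 1, 2 and 3, and did not pass (log2 fold change 0.55 ± 0.39 SE, adjusted p = 0.558). Mated 1 was far above the rest, and without virgin 2 and mated 1 together the value turned to -0.11. GstE6 repeated this with 32.5 CPM in mated 1 against 6.68 and 6.28 CPM in mated 2 and 3, where virgin libraries had 14.4, 8.00 and 16.7 CPM. In all 6 libraries the log2 fold change of GstE6 was 0.23 ± 0.80 (SE, edgeR adjusted p = 0.918). Without virgin 2 and mated 1 together GstE6 passed as lower (edgeR adjusted p = 0.0464). That fit drops its lowest virgin and its highest mated value, so it moves GstE6 toward lower by the choice of libraries.

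GstE12, next in level, was steady within groups. It was at 342, 337 and 317 CPM in virgin 1, 2 and 3 and at 280, 247 and 283 CPM in mated 1, 2 and 3, without overlap, and did not pass (log2 fold change -0.30 ± 0.12 SE, adjusted p = 0.247). GstE8 was at 65.8, 55.0 and 42.3 CPM in virgin 1, 2 and 3 and 48.6, 38.0 and 38.2 CPM in mated 1, 2 and 3 (log2 fold change -0.39 ± 0.18 SE, adjusted p = 0.29). Scaled by total counts alone, GstE12 and GstE8 both passed as lower (adjusted p = 0.0124 and 0.0316). The values of GstE1, GstE5, GstE7 and GstE9 were close between groups, with log2 fold changes between -0.02 and 0.09 and SEs between 0.13 and 0.26.

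Among the tested Epsilon genes, GstE10 had the value farthest from 0. It was at 2.66, 2.03 and 0 CPM in virgin 1, 2 and 3 and at 3.20, 4.07 and 7.12 CPM in mated 1, 2 and 3, and its log2 fold change was 1.59 ± 1.07 (SE; it did not pass, adjusted p = 0.523). Its gene shares 20 exonic bases with GstE1 on the opposite strand, and 81.2% of the counts at GstE10 were on the opposite strand (1786 against 414 on its own). GstE11 (log2 fold change -0.33 ± 0.21) and GstE13 (0.48 ± 0.22) did not overlap between groups either and did not pass. Over all classes, groups did not overlap for 7 of the 31 tested members with mated higher (22.6%, against 11.6% of all tested genes) and for 5 with mated lower (16.1%, against 12.3%).

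GstS1 (2R, 17093246 to 17099501), the single Sigma gene, encodes an enzyme that conjugates the lipid peroxidation product 4-hydroxynonenal and is abundant in fly muscle. It was at 44.1, 51.5 and 65.0 CPM in virgin 1, 2 and 3 and at 64.9, 85.3 and 79.5 CPM in mated 1, 2 and 3. Virgin 3 and mated 1 were nearly equal, so the groups just overlapped, and GstS1 did not pass in edgeR (log2 fold change 0.52 ± 0.17 SE, adjusted p = 0.128). DESeq2 called it as higher (adjusted p = 0.0467). The muscle genes Mhc, Act57B and bt all passed as higher in mated midguts in edgeR, where 2.47% of all tested genes passed as higher. They summed to 946, 742 and 795 CPM in virgin 1, 2 and 3 and to 2099, 1787 and 1379 CPM in mated 1, 2 and 3. Between groups, GstS1 and the muscle sum both lay higher on average in mated libraries. Within each group the library with the most muscle RNA, virgin 1 and mated 1, had the lowest GstS1 level. Of the other libraries in each group, the one with more muscle RNA (virgin 3, mated 2) had more GstS1. The part of muscle RNA in the GstS1 values was not tested.

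The Zeta genes GstZ1 and GstZ2 lie side by side on 3R (9455517 to 9460652) and belong to the class that isomerises maleylacetoacetate in the breakdown of tyrosine. GstZ1 was at 8.13, 7.47 and 10.8 CPM in virgin 1, 2 and 3 and at 6.62, 6.43 and 5.43 CPM in mated 1, 2 and 3. All mated libraries were lower, and it did not pass (log2 fold change -0.51 ± 0.25 SE, adjusted p = 0.33). GstZ2 was at 0.365, 0.219 and 0.557 CPM in virgin 1, 2 and 3 and at 0.776, 0.509 and 0.422 CPM in mated 1, 2 and 3, which overlapped (log2 fold change 0.60 ± 0.93 SE, adjusted p = 0.798). Of these 2 genes, 0 were below 0.05 before adjustment in edgeR, and limma-voom and DESeq2 called 0.

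**Figure D5:**
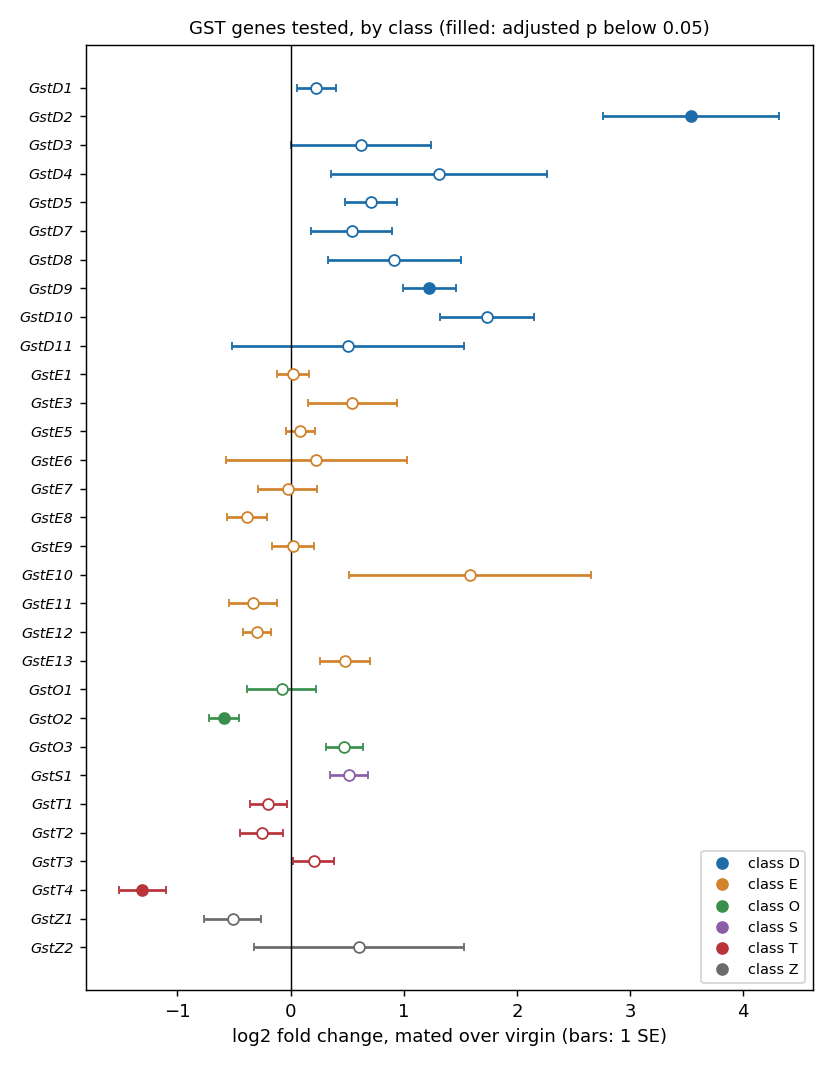
Log2 fold change of mated over virgin for the 31 tested GST genes, coloured by class, with bars of 1 SE and filled points for an adjusted p below 0.05. The Delta points all lie right of 0 (0.23 to 3.54, where GstD1 turns to -0.01 when scaled by total counts alone), the Epsilon points lie on both sides (-0.39 to 1.59), and GstT4 lies farthest left at -1.31.

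The list of glutathione synthesis and turnover gave 1 lower gene among 6 tested, 0 higher and 5 that did not pass. The 1 lower gene is 16.7% of the list, where 1.63% of all tested genes passed as lower. Gclc and Gclm, the catalytic and modifier subunits of the enzyme that limits glutathione synthesis, had log2 fold changes of 0.16 ± 0.18 and -0.01 ± 0.14 (SE). The gene that fell was CG17636, a predicted gamma-glutamyl transferase, an enzyme type that splits glutathione outside the cell. It was at 23.9, 20.6 and 16.2 CPM in virgin 1, 2 and 3 and at 9.68, 11.8 and 10.4 CPM in mated 1, 2 and 3 (log2 fold change -0.93 ± 0.20 SE, edgeR adjusted p = 0.024), and passed in 1 of the 6 fits that left out 1 library (adjusted p from 0.0171 to 0.0998). Its call was also lost with the replicate block (adjusted p = 0.0544) and without virgin 2 and mated 1 together (adjusted p = 0.17). Gss1 and Gss2, both glutathione synthases, are listed at 0 in all 6 libraries. They lie side by side on X with the same exon length of 2838 bases, and reads placed at several positions are not counted. The 0 can therefore not be read as absence of their RNA, and the part of such reads was not tested. Over the 6 tested genes the median of the log2 fold changes was 0.07.

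None of the 5 tested regulators passed in edgeR, and limma-voom and DESeq2 called 0. At an unadjusted p below 0.05 in edgeR, 1 was higher and 2 lower, where 17.2% of all tested genes were below 0.05 in either direction. The factor cnc was at 398, 314 and 379 CPM in virgin 1, 2 and 3 and at 356, 370 and 380 CPM in mated 1, 2 and 3 (log2 fold change 0.02 ± 0.13 SE). Keap1 was at 30.0, 35.5 and 46.7 CPM in virgin and 69.8, 50.1 and 48.9 CPM in mated libraries, with no overlap (log2 fold change 0.59 ± 0.19 SE, adjusted p = 0.139). The partner of cnc, maf-S, lay lower in all mated libraries (log2 fold change -0.40 ± 0.14 SE, edgeR adjusted p = 0.154). So did tgo (log2 fold change -0.53 ± 0.17 SE, edgeR adjusted p = 0.132).

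Of 10 tested thiol redox genes, such as peroxiredoxins and the thioredoxin reductase Trxr-1, none passed in edgeR, DESeq2 called 1 and limma-voom 0. In edgeR 2 had an unadjusted p below 0.05 (both higher), where 17.2% of all tested genes were below 0.05. The list's median was 0.24. Of 4 tested GST-fold or membrane GST genes outside the naming rule, none passed in edgeR, limma-voom or DESeq2 (0 each), and 1 was below 0.05 before adjustment in edgeR. That 1 was gfzf, which carries a GST domain beside zinc fingers (log2 fold change -0.57 ± 0.16 SE, adjusted p = 0.0756). The abundant membrane GST Mgstl was at 89.0, 91.4 and 94.7 CPM in virgin and 94.0, 83.6 and 81.6 CPM in mated libraries.

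Among 9 transporters of the ABCC family, several of whose members pump glutathione conjugates out of cells, 1 rose, 0 fell and 8 did not pass, with a list median of 0.12. The 1 that rose is 11.1% of the list, where 2.47% of all tested genes passed as higher. CG4562 was at 875, 565 and 877 CPM in virgin 1, 2 and 3 and at 2020, 1313 and 1543 CPM in mated 1, 2 and 3, and rose 2.10-fold (log2 fold change 1.07 ± 0.21 SE, edgeR adjusted p = 0.0163). It passed in 5 of the 6 fits that left out 1 library, and without mated 3 its adjusted p was 0.0554. Without virgin 2 and mated 1 together its log2 fold change was 0.71 and it did not pass (adjusted p = 0.0552). MRP, the next highest by CPM, did not pass (log2 fold change 0.29 ± 0.14 SE, adjusted p = 0.324).

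Markers of the Malpighian tubules, the renal tubes that join the gut behind the midgut and express detoxification genes, were also measured. The 8 found in the files summed to 27.7, 59.0 and 23.5 CPM in virgin 1, 2 and 3 and to 47.8, 62.9 and 102 CPM in mated 1, 2 and 3, and none was at 0 in all libraries (CapaR was at 0 in virgin 3 and Lkr in virgin 2). Of 7 tested, Uro, the tubule urate oxidase, passed as higher (2.59, 3.62 and 1.17 CPM against 13.6, 22.2 and 44.8 CPM) and 6 did not pass. The 1 that passed is 14.3% of those tested, where 2.47% of all tested genes passed as higher. The 6 that did not pass had log2 fold changes from -0.81 (Oatp58Db) to 1.07 (Oatp58Dc). Uro, GstD2, GstD9 and GstD10 each lay higher in all mated than in all virgin libraries. Among mated libraries Uro was highest in mated 3, GstD2 in mated 1, and GstD9 and GstD10 in mated 2. The fat body markers Lsp2, apolpp and Lsp1beta summed to 17.3, 23.3 and 9.59 CPM in virgin 1, 2 and 3 and to 12.8, 7.19 and 5.01 CPM in mated 1, 2 and 3, with overlap. Only apolpp, the lipoprotein precursor, had enough counts to be tested, and it did not pass (log2 fold change -1.04 ± 0.38 SE, unadjusted p = 0.024, edgeR adjusted p = 0.204). Lsp2 was at 0 in virgin 1, virgin 2 and mated 3, and Lsp1beta in virgin 1, virgin 3 and mated 3. The part of tubule or fat body RNA in the GST values was not tested.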

How the data were processed

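Per the labels' protocols, TRIzol was used for extraction and a stranded TruSeq mRNA kit for library construction. The authors deposited raw counts by gene, with 1 table for each sample, laid out as STAR writes them; per the submitters' processing notes, STAR, CASAVA 1.8.4, DESeq2 1.42.0 and build dm6 were used, with no role stated; no annotation release is named. The reverse-strand counts were used, and the 4 summary lines entered neither library sizes nor tests. The gene counts leave out reads placed at several positions.

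The fit used edgeR 4.0.16 (R 4.3.3) with filterByExpr, TMM factors (1.04 to 1.13 for virgin, 0.86 to 0.965 for mated libraries), robust glmQLFit and a two-sided glmQLFTest with no term but group, adjusted over 8607 genes. The common biological coefficient of variation was 0.291. SEs come from the F statistic. Libraries of 1 group differed by more than sampling noise (chi-square over degrees of freedom from 23.9 to 83.3). Whether the pools are independent cultures is not in the labels, and p-values then cover only the spread among these 6 samples, which may be technical. The floor of 3 counts covers counting error only. Exon lengths and positions come from the Ensembl annotation in dm6 coordinates, in which all 35 members were found. The pipeline was tested on simulated data.

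Members and gene lists were chosen with earlier results of these data known. Values in every library are given for members that passed, the 2 highest of each class per kilobase and the largest fold change of each class; GstD5, GstD8, GstD10, GstE6, GstE8, Keap1, cnc, Mgstl, Uro and apolpp were added after their values were seen. No sequences are printed. Planned descriptions of protein identity, promoter motifs and unique windows were not made. Other settings tried were scaling by RLE, upper quartile or library size, other low-count filters, DESeq2 1.42.0, limma-voom (limma 3.58.1), a replicate block, the unstranded counts and libraries left out.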

Additional observations from a re-analysis of the deposited data

Results flagged for a closer look

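The counts on the strand opposite to the gene, which enter no comparison here, were flagged for 4 GST genes where they exceeded 10% of the counts of both strands; over all genes that share was 1.86% to 2.32% per library. At GstE10 it was 81.2%, with 1786 counts on the opposite strand against 414 on its own, and between 228 and 543 opposite-strand counts in each library. At GstT2, which shares 223 exonic bases with CG12926 on the other strand, it was 36.1%. At the rare GstE2 and GstZ2 it was 12.5% and 14.1%, from 5 and 10 counts.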

How the results depend on the processing

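The number of higher GST genes, 2 as reported, was 1 with no low-count filter, 5 with DESeq2 and 1 with the replicate block, and ranged from 0 to 2 when 1 library was left out. The number of lower genes, also 2, was 4 when scaled by library size alone, 1 with the replicate block (GstT4), 1 without virgin 2 and mated 1 together (GstE6, not GstT4 or GstO2) and 1 in each fit that left out 1 library. Under RLE and upper-quartile scaling, the 1 CPM filter and the unstranded counts the same 4 genes passed. With library size alone, 6 of the 31 tested members changed sign (GstD1, at -0.013, and GstE1, GstE5, GstE6, GstE9 and GstT3); without virgin 2 and mated 1 together, 7 of 29 did (GstE3, at -0.11, and GstD8, GstD11, GstE1, GstE6, GstE9 and GstO1), and in each other setting 0 to 4; the cause was not tested. Log2 ratios of summed class levels moved by less than the combined SD of both groups, but some turned: Epsilon, at 0.08, to -0.18 with library size alone, -0.22 without virgin 2 and mated 1 and -0.15 without mated 1; Omega, at 0.11, to -0.13 with library size alone. That of all GST genes, at -0.07, ranged from -0.32 to 0.10. Over all genes, 353 passed as reported, 872 with library size alone, 638 with DESeq2 and 169 without mated 2. With library size alone, 1.70% of tested genes passed as higher and 8.44% as lower. Same-numbered libraries did not deviate together (correlations of -0.15, -0.08 and -0.03), so the numbers were not taken as pairs. Members near or below 1 CPM rest on few counts.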
